A study of Mus musculus with 4 samples.

Results

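CpG methylation was examined at 38 Hox genes, the members of the HoxA, HoxB, HoxC and HoxD clusters taken here, out of 55413 annotated mouse genes and 20135 genes whose promoter could be measured. The members were chosen by name and by their place in the genome, with earlier results of these data known. HoxA on chromosome 6 and HoxB on chromosome 11 each held 10 members, and HoxC on chromosome 15 and HoxD on chromosome 2 each held 9.

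Hox genes encode homeodomain transcription factors that give cells of the embryo their position along the axis from head to tail. Within a cluster the genes stand in the order in which they act along that axis, from low-numbered anterior genes to high-numbered posterior genes, and genes that share a number in different clusters are paralogs. In tissues where the clusters are silent they are usually held by Polycomb proteins with little DNA methylation, and gain of methylation at Hox CpG islands is common in cancer, lung adenocarcinoma included.

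Methylation had been measured by reduced representation bisulfite sequencing, which reads CpG-rich fragments after unmethylated cytosines are converted, in 4 mouse tumors. Tumors were grown from 344SQP, the parental form of a murine lung adenocarcinoma line with mutant p53 (R172HΔg/+), or from 344SQR, an anti-PD1-resistant line derived from it, with 2 tumors of each line. Cells of either line were injected under the skin of the leg of female 129Sv/Ev mice aged 12 to 16 weeks. All 4 tumors received anti-PD1 at 10 mg/kg from day 4, for 4 doses, and were collected 24 h after the last dose, so neither untreated tumors nor other resistant lines enter the comparison. The tumors were whole tissue under the skin rather than lung, with host cells present. Each line is a single derivation, and differences between the lines that arose in culture cannot be told apart from those tied to resistance.

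The files held 116794455 and 138331886 CpG calls for the 344SQP tumors labelled replicates 1 and 2, and 160548303 and 174689402 calls for the 344SQR tumors. A site is a CpG cytosine on 1 strand, and sites with at least 20 reads in every tumor were used (1081201 sites). Between the first and the last base of the members of each cluster there were 3480 such sites, all on a CpG of the mm10 reference. At 20 reads, 1 read is worth 5 percentage points, and most values below are therefore means over the sites of a feature. At member promoters the mean coverage was 96.5 and 116 reads per site in the 344SQP tumors and 126 and 148 reads in the 344SQR tumors.

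Hox promoters stood at intermediate methylation in all 4 tumors. Promoters were taken as the 1000 bp before every TSS and the 500 bp after it, and 35 of the 38 members had a measured promoter site, 1333 sites in all with none shared between members. The mean over these 35 promoters was 31.0% and 47.0% in the 344SQP tumors (39.0% ± 11.3, SD, n = 2) and 33.0% and 46.1% in the 344SQR tumors (39.5% ± 9.26, SD, n = 2). The median member promoter was methylated at 40% over the 4 tumors, where the median of all 20135 promoters was 2.96%. A level between 20% and 60% was found at 28 of the 35 member promoters (80%), against 15.3% of all promoters. Bulk values of this kind cannot tell partly methylated alleles from a mix of cells that are fully methylated or free of methylation.

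Most member promoter sites were neither free of methylation nor fully methylated. Sites below 20% made up 26.7% and 14.5% of the 1333 sites in the 344SQP tumors and 26.9% and 22.2% in the 344SQR tumors, while 83.8% to 86.4% of the sites of all promoters were in that class. The upper class, from 80% to 100%, held 2.63% and 8.70% of the member sites in the 344SQP tumors and 3.30% and 24.0% in the 344SQR tumors. The 344SQR tumor labelled replicate 2 thus had the largest share of nearly full sites, and the other 344SQR tumor lay between the 344SQP tumors in this class. Fully unmethylated sites (0%) were rare among members, from 0.75% to 1.80% of sites per tumor, against 43.4% to 48.4% of the sites of all promoters.

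**Figure D1:**
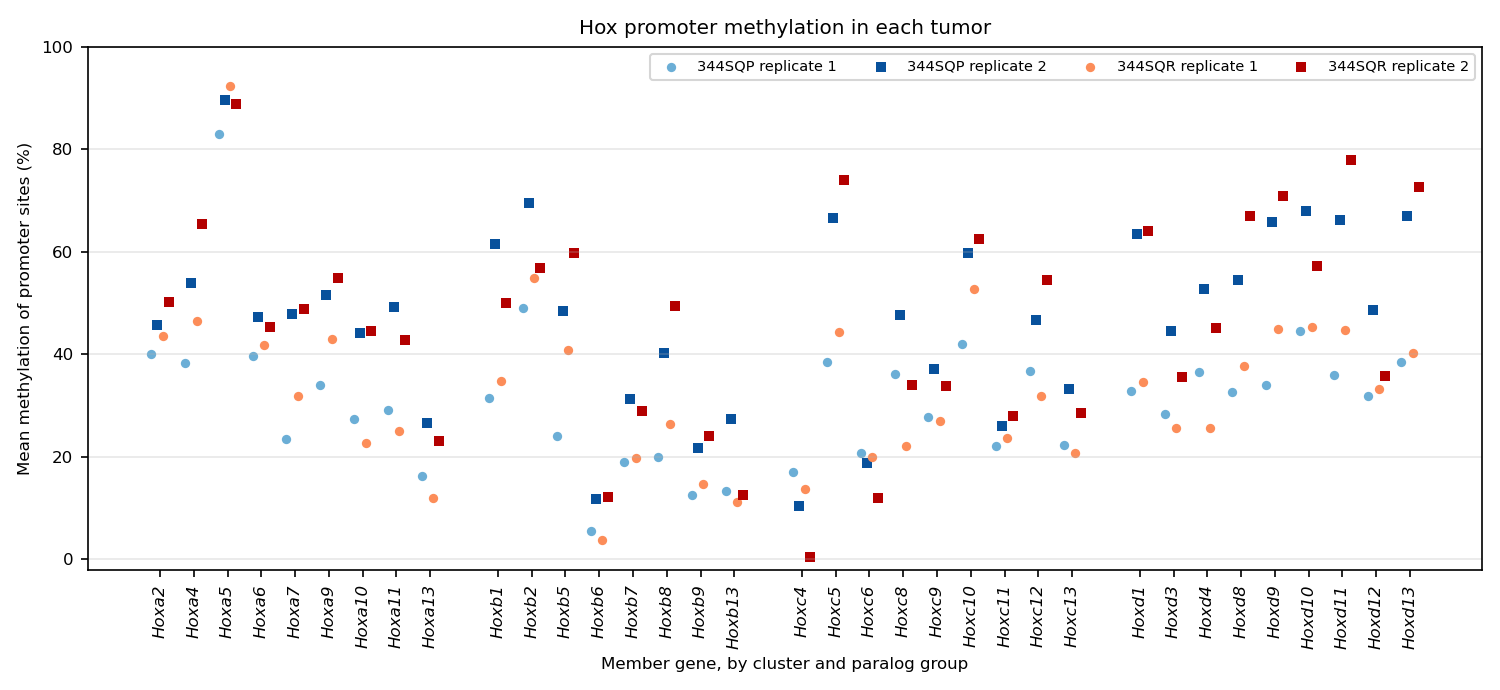
Mean methylation in percent (vertical axis) of the promoter sites of each of the 35 measured member genes (horizontal axis, by cluster and paralog group), with 1 point per tumor. Circles are the tumors labelled replicate 1 and squares those labelled replicate 2, blue for 344SQP and orange to red for 344SQR; squares lie above circles of the same line at 33 promoters in 344SQP and at 32 in 344SQR, and only Hoxa5 lies above 80% in all 4 tumors.

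Hox promoters differed between tumors of the same line. The tumor labelled replicate 2 was above the tumor labelled replicate 1 at 33 of 35 member promoters in 344SQP, at 32 in 344SQR and at 32 in both lines. The median gap, signed as replicate 2 minus replicate 1, was 16.2 percentage points in 344SQP and 11.8 points in 344SQR. Between the lines, whose means each rest on 2 tumors, the median absolute difference was 4.62 points. Over all promoters, most of them low in methylation and going both ways, the median signed gap was 0.127 points in 344SQP and 0.0501 points in 344SQR, and the tumor labelled replicate 2 was the higher in both lines at 36.1% of promoters. The tumors come from different mice, and nothing in the sample descriptions says that tumors with the same number share a batch.

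**Figure D2:**
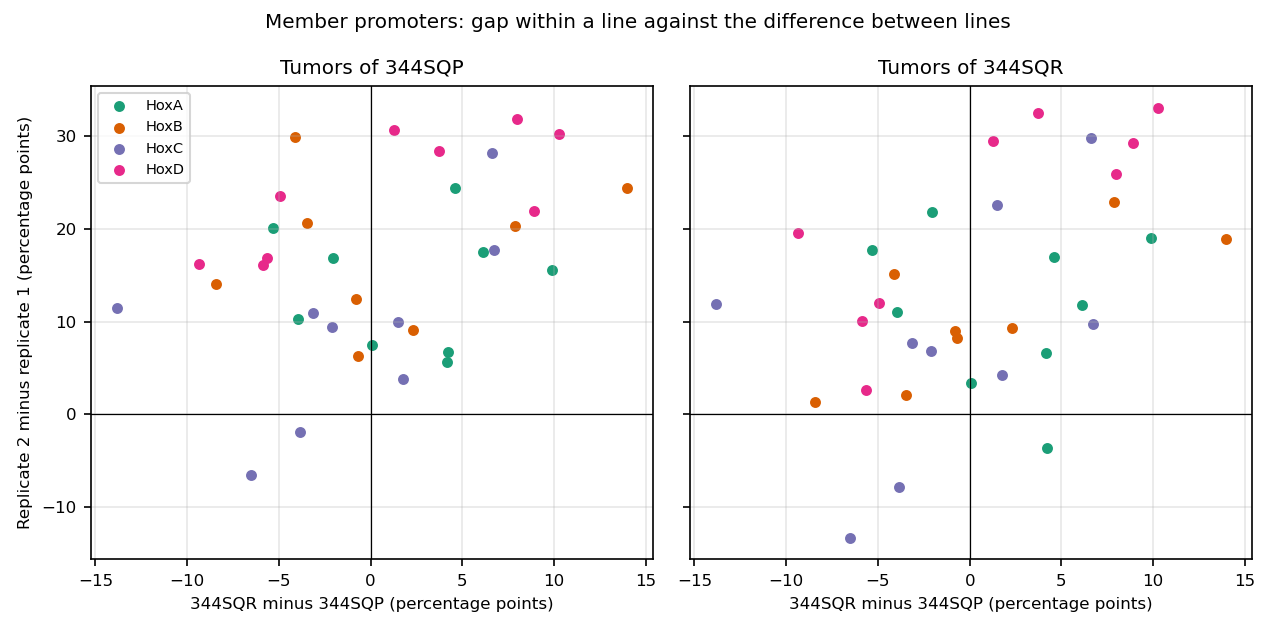
Difference between the lines (horizontal axis, 344SQR minus 344SQP, percentage points) against the gap between the tumors of a line (vertical axis, replicate 2 minus replicate 1, percentage points) for the 35 measured member promoters, coloured by cluster, with 344SQP on the left and 344SQR on the right. Differences between lines run from −13.8 to 14.0 points and are spread on both sides of 0, while 33 of the 35 gaps are above 0 in 344SQP and 32 in 344SQR.

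Between the lines, Hox promoters moved in both directions. Each site was tested on its reads, sites were joined into a signed z per promoter, and the false discovery rate was taken over all promoters; at an FDR under 0.05, 15 of the 35 member promoters were called lower in 344SQR, 14 were called higher and 6 were not called. Over all promoters 29.7% were called lower and 8.79% higher. The mean over member promoters differed by 0.511 points between the lines (344SQR minus 344SQP; exact permutation p = 1, two-sided, where 2 tumors against 2 allow no p under 0.33). The values of the lines overlapped at 33 of the 35 promoters: only Hoxc8 and Hoxb13 were called lower with both 344SQR tumors under both 344SQP tumors, and no member was called higher without overlap (19.8% and 2.75% of all promoters, respectively).

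The calls rest on reads and treat the spread between tumors of a line as counting error. With tests that take that spread into account, edgeR's quasi-likelihood test and limma, 0 member promoters were called in either direction. Over all 20135 promoters edgeR called 0.0745% lower and 0% higher, and limma 0% in either direction. At an unadjusted p under 0.05, edgeR had 1 member lower and 0 higher, and limma 0 and 0. With a term for the replicate number (a replicate block), edgeR called 1 member lower and 4 higher, against 9.87% and 2.27% of all promoters. Single tumors also set the counts: 23 promoters were called lower and 1 higher without 344SQP replicate 1, 3 and 26 without 344SQP replicate 2, 6 and 18 without 344SQR replicate 1, and 24 and 2 without 344SQR replicate 2. Over all promoters the same fits called 28.9% lower and 7.44% higher, 21.9% and 12.8%, 30.6% and 11.6%, and 28.7% and 3.90%, so no direction of the member counts stood above the background in every fit.

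By position along the clusters, the anterior paralog groups 1 to 3 had a mean promoter level of 36.4% and 57.0% in the 344SQP tumors and 38.7% and 51.4% in the 344SQR tumors, a difference of −1.60 points over 5 measured genes. Groups 4 to 8, at 31.1% and 44.4% against 33.4% and 45.1%, differed by 1.51 points over 14 genes. Posterior groups 9 to 13 stood at 29.3% and 46.2% against 30.8% and 45.2%, a difference of 0.295 points over 16 genes. In none of these bands did the difference reach the gap between tumors of a line. Group 5 was the only paralog group of 3 or more measured genes in which every measured member was called in 1 direction. Hoxa5, Hoxb5 and Hoxc5 were all called higher, against 8.79% of all promoters, and the group was singled out after its values were seen. The group mean was 48.5% and 68.3% in 344SQP and 59.2% and 74.2% in 344SQR, which overlap. Its mean over the 344SQR tumors, 66.7%, lay under 344SQP replicate 2. Without 344SQP replicate 1 the differences were 0.863 points at Hoxa5 and 1.76 points at Hoxb5. At Hoxc5 the 344SQR mean, 59.2%, lay under the 66.7% of 344SQP replicate 2.

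Members were also compared by CpG density, without a test. CpG-rich promoters (a GC share of at least 0.55 and an observed over expected CpG of at least 0.75) were found at 6 members, Hoxa4, Hoxa13, Hoxd1, Hoxd8, Hoxd11 and Hoxd13. They averaged 32.4% and 55.3% in the 344SQP tumors and 36.0% and 61.7% in the 344SQR tumors, with 4 called higher, 1 lower and 1 not called. Over all promoters 8.79% were called higher and 29.7% lower. Without 344SQR replicate 2 the differences were −6.26 points at Hoxd11, −5.76 points at Hoxd8 and 0.373 points at Hoxa4, which were among those called higher. The other 29 measured members averaged 30.7% and 45.3% against 32.4% and 42.8%, with 10 called higher, 14 lower and 5 not called. The gap between the tumors of a line was 22.9 and 25.7 points at the CpG-rich promoters and 14.6 and 10.5 points at the others. Of the 6, 4 are HoxD genes, and the part of the cluster in these values was not tested.

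HoxA genes pattern the hindbrain at the anterior end and the limb and genital tract at the posterior end. In HoxA, 5 of 9 measured promoters were called higher and 3 lower, against 8.79% and 29.7% of all promoters. Cluster means were 36.8% and 50.7% in 344SQP and 39.9% and 51.6% in 344SQR, a difference of 1.97 points (exact permutation p = 0.667). Hoxa5, which is needed for lung development, had the highest promoter level of all members, at 83.0% and 89.7% in the 344SQP tumors and 92.4% and 88.8% in the 344SQR tumors over 45 sites. Its difference of 4.22 points was called, but the 344SQR values straddled the higher 344SQP value, and it was 0.863 points and not called without 344SQP replicate 1 (FDR = 0.405) and 2.43 points and not called without 344SQR replicate 1 (FDR = 0.176). Hoxa4, its neighbour, stood at 38.3% and 53.9% against 46.4% and 65.5% over 91 sites, a difference of 9.90 points. Leaving out each tumor in turn gave 0.373 to 19.4 points; the smallest, without 344SQR replicate 2, was not called (FDR = 0.971). Toward the posterior end, the promoters of Hoxa10, Hoxa11 and Hoxa13 were all called lower, by 2.07 to 5.32 points, and each overlapped between the lines. Their 344SQR means, 33.7%, 33.8% and 17.5%, lay above 344SQP replicate 1, at 27.4%, 29.1% and 16.3%. The shared direction thus depended on 344SQP replicate 2. Hoxa13, the last gene of the cluster and a determinant of the digits, was at 16.3% and 26.6% in 344SQP and at 12.0% and 23.1% in 344SQR.

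In HoxB, 3 of 8 measured promoters were called lower and 3 higher, against 29.7% and 8.79% of all promoters. Cluster means were 21.9% and 39.0% in 344SQP and 25.8% and 36.7% in 344SQR, a difference of 0.833 points (exact permutation p = 1). The cluster held both extremes of level after Hoxa5: Hoxb2, a hindbrain segment gene, was at 49.0% and 69.6% against 54.8% and 56.9%, and Hoxb6 had the lowest promoter with at least 5 sites, at 5.50% and 11.8% against 3.84% and 12.1%. Neither was called. They rest on 5 and 7 sites, respectively; without 344SQP replicate 1, Hoxb2 was called lower by −13.8 points and Hoxb6 by −3.82 points, and without 344SQR replicate 2 Hoxb6 was called lower by −4.80 points. At a minimum of 10 reads Hoxb6 was instead called higher, by 10.8 points (FDR = 0.00742).

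Hoxb5 had the largest positive difference of any member promoter, although its tumors overlapped and it was singled out after its values were seen. Its 16 sites averaged 24.1% and 48.5% in 344SQP and 40.8% and 59.8% in 344SQR, a difference of 14.0 points, and 15 of the 16 sites were higher in 344SQR. The difference was 1.76 points and not called without 344SQP replicate 1 (FDR = 0.381).

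Hoxb13, the most posterior HoxB gene and a regulator of the prostate and the tail bud, stood apart in the other direction. Its promoter was methylated at 13.4% and 27.4% in the 344SQP tumors and at 11.3% and 12.6% in the 344SQR tumors, a fall of −8.45 points (FDR = 3.44e-28), with 23 of 24 sites lower. The 344SQR tumors were the lower pair and lay 1.39 points apart, but the 344SQP tumors lay 14.1 points apart. Without 344SQP replicate 2 the difference was −1.42 points and was not called (FDR = 0.125). At the site with the largest difference, chr11:96193655, which lies 661 bp upstream of the TSS on the minus strand, the percentages were 57.7% (95% Wilson interval 49.8 to 65.2, 156 reads), 69.0% (62.0 to 75.3, 184 reads), 47.6% (41.0 to 54.4, 210 reads) and 17.0% (12.7 to 22.3, 230 reads). Intervals of this kind cover counting error only and hold no spread between tumors. They can be too narrow even for that, since reads copied by PCR are not independent molecules. The site was also picked for the size of its difference.

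In HoxC, 5 of 9 promoters were called lower and 2 higher, against 29.7% and 8.79% of all promoters. Cluster means were 29.3% and 38.5% in 344SQP and 28.5% and 36.4% in 344SQR, a difference of −1.43 points (exact permutation p = 0.667). Hoxc8, a gene of the thoracic region, had the largest difference of all member promoters in either direction among those without overlap: 36.2% and 47.7% in 344SQP against 22.2% and 34.1% in 344SQR over 35 sites, a fall of −13.8 points (FDR = 5.06e-82). Both 344SQR tumors lay under both 344SQP tumors, with 26 of 35 sites lower and 8 higher. Leaving out each tumor in turn gave −19.8 to −7.89 points. Without a replicate block, neither edgeR (FDR = 0.545) nor limma (FDR = 0.553) called Hoxc8, while edgeR with that block did (FDR = 0.000478).

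Most Hoxc8 sites lay downstream of the TSS, 31 sites that averaged 37.9% and 48.8% against 23.1% and 35.0%; the 4 upstream sites were also lower, at 23.5% and 39.3% against 15.3% and 26.8%, with overlap. Its largest site difference, −39.9 points, was in the 5′ untranslated region at chr15:102990669, 62 bp past the TSS, at 49.7% and 64.6% in 344SQP and 17.8% and 16.6% in 344SQR. Almost as large, −39.7 points, was a site in coding sequence at chr15:102990945. Its reads gave 46.4% (95% Wilson interval 38.7 to 54.3, 153 reads) and 59.1% (52.6 to 65.3, 225 reads) in 344SQP, and 5.76% (3.25 to 10.0, 191 reads) and 20.4% (16.1 to 25.6, 274 reads) in 344SQR. The site was picked for the size of its difference, so intervals that stand apart are expected from the choice.

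The stretches around the most changed sites outside untranslated regions are given for the promoters of Hoxc8 and Hoxb13, the members whose lines did not overlap, with CpGs in capitals. The Hoxc8 stretch is coding sequence at chr15:102990817-102990983 (mm10, plus strand), and the Hoxb13 stretch lies upstream of the gene at chr11:96193575-96193686 (mm10, plus strand).
Hoxc8: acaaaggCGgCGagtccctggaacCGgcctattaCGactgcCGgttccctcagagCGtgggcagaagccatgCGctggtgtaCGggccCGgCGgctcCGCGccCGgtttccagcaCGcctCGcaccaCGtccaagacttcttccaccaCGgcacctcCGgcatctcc
Hoxb13: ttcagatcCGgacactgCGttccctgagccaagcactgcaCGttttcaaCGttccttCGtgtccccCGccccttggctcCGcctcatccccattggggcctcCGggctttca
Over 167 bases the Hoxc8 stretch has 18 CpGs and 17 measured sites on both strands, 15 of them lower in 344SQR, with means of 52.9% and 62.6% in 344SQP and 29.0% and 44.6% in 344SQR. In 112 bases the Hoxb13 stretch has 8 CpGs and 9 measured sites, all 9 lower, with means of 24.8% and 37.2% in 344SQP and 17.9% and 19.0% in 344SQR.

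Other HoxC promoters overlapped between the lines. Hoxc6 was at 20.8% and 18.9% in 344SQP and 19.9% and 12.1% in 344SQR over 8 sites, among the 3 lowest levels of members with at least 5 sites and, with Hoxc4, the only promoter in which the tumor labelled replicate 2 was the lower in both lines. Its called difference of −3.87 points was lost without 344SQP replicate 1 (−2.91 points, FDR = 0.106) and without 344SQR replicate 2 (0.0565 points, FDR = 0.952). Hoxc10 and Hoxc5 were called higher by 6.71 and 6.61 points, each with overlap. Their 344SQR means, 57.6% and 59.2%, lay under 344SQP replicate 2, at 59.8% and 66.7%, so both directions depended on 344SQP replicate 1. Hoxc4 had 2 sites and was called lower by −6.50 points.

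HoxD had the highest cluster mean over the 4 tumors and the widest gap within lines; in the tumors labelled replicate 1, HoxA was the higher. Its 9 promoters averaged 35.0% and 59.0% in 344SQP and 36.9% and 58.5% in 344SQR, a difference of 0.706 points (exact permutation p = 1). Of these, 4 were called lower and 4 higher, against 29.7% and 8.79% of all promoters. The median gap between tumors of a line was 23.5 points in 344SQP and 26.0 points in 344SQR. In this cluster, which patterns the limb and digits through its posterior genes, every promoter was higher in the tumor labelled replicate 2 of each line.

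Hoxd11, required for the forearm bones and the kidney, was among the 3 highest promoters: its 100 sites averaged 36.0% and 66.2% in 344SQP and 44.8% and 77.9% in 344SQR. The called difference of 10.3 points turned to −4.86 points without 344SQP replicate 1 and to −6.26 points without 344SQR replicate 2, called in both cases. The promoters of Hoxd8 (114 sites, 32.6% and 54.5% against 37.8% and 67.1%) and Hoxd9 (44 sites, 34.0% and 65.8% against 44.9% and 70.9%) had the same order of tumors, and without 344SQR replicate 2 their differences were −5.76 and −5.01 points, while Hoxd9 was at −7.93 points without 344SQP replicate 1. Hoxd4, at 36.6% and 52.8% against 25.6% and 45.1%, had the largest negative difference in the cluster, −9.34 points; it was −1.24 points without 344SQP replicate 2 (FDR = 0.354) and 0.443 points without 344SQR replicate 1 (FDR = 0.824), called in neither case. Hoxd12 was at 31.8% and 48.6% against 33.3% and 35.9%, and its difference of −5.64 points became 2.77 points without 344SQP replicate 2. These 5 genes and Hoxa4 were picked from the called members with overlap after their values were seen.

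Within promoters, sites upstream (the 1000 bp before) and downstream (the 500 bp after) of the TSS could be compared at 20 members with at least 5 sites in each part. Upstream parts averaged 31.4% and 48.4% in 344SQP and 33.9% and 46.5% in 344SQR, and downstream parts 32.8% and 51.7% against 38.8% and 54.6%. Downstream means were the higher in all 4 tumors, while by gene each part was the higher at 10 of 20. The difference between lines had opposite signs in the parts of 9 of the 20 genes.

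At some members the parts of a promoter parted ways, and these were picked after their values were seen and carry no test of their own. At Hoxd3, which acts in the cervical vertebrae, 46 upstream sites averaged 27.6% and 36.8% in 344SQP and 19.4% and 22.7% in 344SQR, without overlap, whereas its 28 downstream sites averaged 29.8% and 57.3% against 35.8% and 57.0%. The whole promoter of Hoxd3 was called lower by −5.87 points; that turned to 2.21 points without 344SQP replicate 2 and to 2.94 points when only the TSS at the 5′ end of the gene was used. At Hoxa9, a gene of blood cell progenitors and leukemia, the 7 downstream sites were higher in 344SQR without overlap, at 39.3% and 54.4% against 56.3% and 69.0%, and the 20 upstream sites overlapped, at 32.2% and 50.6% against 38.4% and 49.9%. At Hoxa7, the 5 upstream sites fell to low levels, 10.7% and 14.9% against 5.83% and 4.57%, while its 36 downstream sites were at 25.3% and 52.5% against 35.5% and 55.0%.

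No promoter site of Hoxa3, Hoxb3 or Hoxb4 had 20 reads in every tumor. The files listed 41, 31 and 11 sites there in at least 1 tumor, respectively, and none had even 5 reads in all 4 tumors. The promoter methylation of these 3 genes was thus not measured at this depth, while their exons were.

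Exons outside promoters were called lower in 344SQR about as often as those of all genes. Of the 31 members with such sites (805 sites), 18 were called lower, 2 higher and 11 were not called, against 52.8% lower and 9.11% higher over 10715 genes. Mean exon methylation was 34.1% and 44.6% in 344SQP (39.3% ± 7.45, SD, n = 2) and 32.4% and 37.5% in 344SQR (35.0% ± 3.64, SD, n = 2), a difference of −4.35 points (exact permutation p = 0.667). With edgeR the exons of 0 members were called in either direction, against 0.0467% lower and 0% higher of all genes. At an unadjusted p under 0.05, edgeR had 2 lower and 0 higher. Limma called 0, against 0% of all genes, with 0 at that p. With a replicate block edgeR called 5 lower and 0 higher, against 17.5% and 1.41% of all genes. Without 344SQP replicate 1, 25 exons were called lower and 0 higher (55.6% and 5.94% of all genes); without 344SQP replicate 2, 11 and 12 (44.8% and 12.4%); without 344SQR replicate 1, 15 and 11 (52.7% and 12.1%); and without 344SQR replicate 2, 24 and 3 (40.8% and 7.03%).

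In 6 members the exons were called lower without overlap, and in 0 higher (39.8% and 3.79% of all genes). Hoxa3, whose promoter was not measured, had the largest fall: its 10 coding sites at chr6:52170342-52170608 averaged 63.6% and 56.4% in 344SQP and 49.1% and 23.9% in 344SQR, −23.5 points (FDR = 1.26e-48). Both 344SQR tumors lay under both 344SQP tumors, though they differed from each other by 25.2 points. Hoxc4 followed, with 20 coding sites at chr15:103034956-103035878 at 20.6% and 29.3% against 12.3% and 11.9%, −12.8 points (FDR = 4.35e-50), and 19 of the 20 sites lower. Leaving out each tumor in turn gave −36.1 to −10.9 points at Hoxa3 and −17.1 to −8.44 points at Hoxc4, called each time. The others were Hoxc13 (−11.5 points), Hoxd4 (−11.3 points), Hoxb1 (−10.0 points) and Hoxb13 (−9.27 points). At Hoxb13 the exons, at 16.8% and 22.4% against 13.3% and 7.42%, thus went the same way as the promoter. The exons called higher were those of Hoxa10 (3.31 points) and Hoxd8 (2.12 points), both with overlap.

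By cluster, exon means did not overlap between lines in HoxA (45.9% and 51.0% against 45.6% and 41.0%) and HoxC (31.4% and 39.3% against 26.5% and 30.5%), at the smallest exact permutation p possible, 0.333. In HoxB (26.3% and 34.4% against 24.8% and 27.6%) and HoxD (34.7% and 55.2% against 34.6% and 51.9%) they overlapped. In HoxD exons, as at its promoters, the tumor labelled replicate 2 of each line was the higher at all 8 genes; in HoxA it was the higher at 4 of 7 in 344SQP and at 3 of 7 in 344SQR.

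Between genes and in introns, 1000 bp windows with at least 3 sites were tested in the same way. Of 72 such windows in the clusters (846 sites), 36 were called lower, 12 higher and 24 were not called, against 60.1% lower and 6.66% higher over 43004 windows of the genome. Mean window methylation was 27.7% and 36.3% in 344SQP (32.0% ± 6.12, SD, n = 2) and 27.7% and 32.6% in 344SQR (30.2% ± 3.51, SD, n = 2), a difference of −1.84 points (exact permutation p = 1). By edgeR 1 window was called lower and 0 higher, against 2.17% and 0.0488% of all windows. At an unadjusted p under 0.05, edgeR had 6 lower and 0 higher. Limma called 0 in either direction, against 0.0767% lower and 0.00465% higher of all windows, with 4 lower and 0 higher at that p. With a replicate block edgeR called 6 lower and 0 higher, against 23.7% and 0.960% of all windows. Without 344SQP replicate 1, 40 windows were called lower and 2 higher (57.4% and 5.74% of all windows); without 344SQP replicate 2, 18 and 28 (54.4% and 9.19%); without 344SQR replicate 1, 26 and 20 (62.2% and 8.66%); and without 344SQR replicate 2, 42 and 5 (42.4% and 6.66%).

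Without overlap, 13 windows were called lower and 1 higher (44.5% and 3.06% of all windows). The largest fall with at least 5 sites was at chr15:102967001-102968000, inside Hoxc10 and the long Hoxc5 transcript, where 12 sites averaged 29.8% and 39.1% in 344SQP and 16.9% and 18.7% in 344SQR, −16.6 points. A window inside Hoxa7, chr6:52221001-52222000, went from 14.6% and 20.1% to 3.81% and 4.47% over 7 sites, −13.2 points. In both windows the 344SQR tumors were within 2 points of each other, and both stayed called without any 1 tumor. The other windows named by size were less even. In Hoxb3, chr11:96332001-96333000 was at 48.6% and 49.7% against 47.2% and 26.0% over 21 sites, −12.6 points, and was not called without 344SQR replicate 2 (−1.99 points, FDR = 0.410). Between Hoxb13 and Hoxb9, chr11:96256001-96257000 was at 16.0% and 36.1% against 14.9% and 12.6% over 6 sites, −12.3 points, and was not called without 344SQP replicate 2 (−2.24 points, FDR = 0.889) or at a minimum of 50 reads (−2.17 points, FDR = 0.421). The window called higher without overlap, chr6:52228001-52229000 in Hoxa9, had only 4 sites, at 18.6% and 19.7% against 25.7% and 37.6%, and was singled out after its values were seen.

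**Figure D3:**
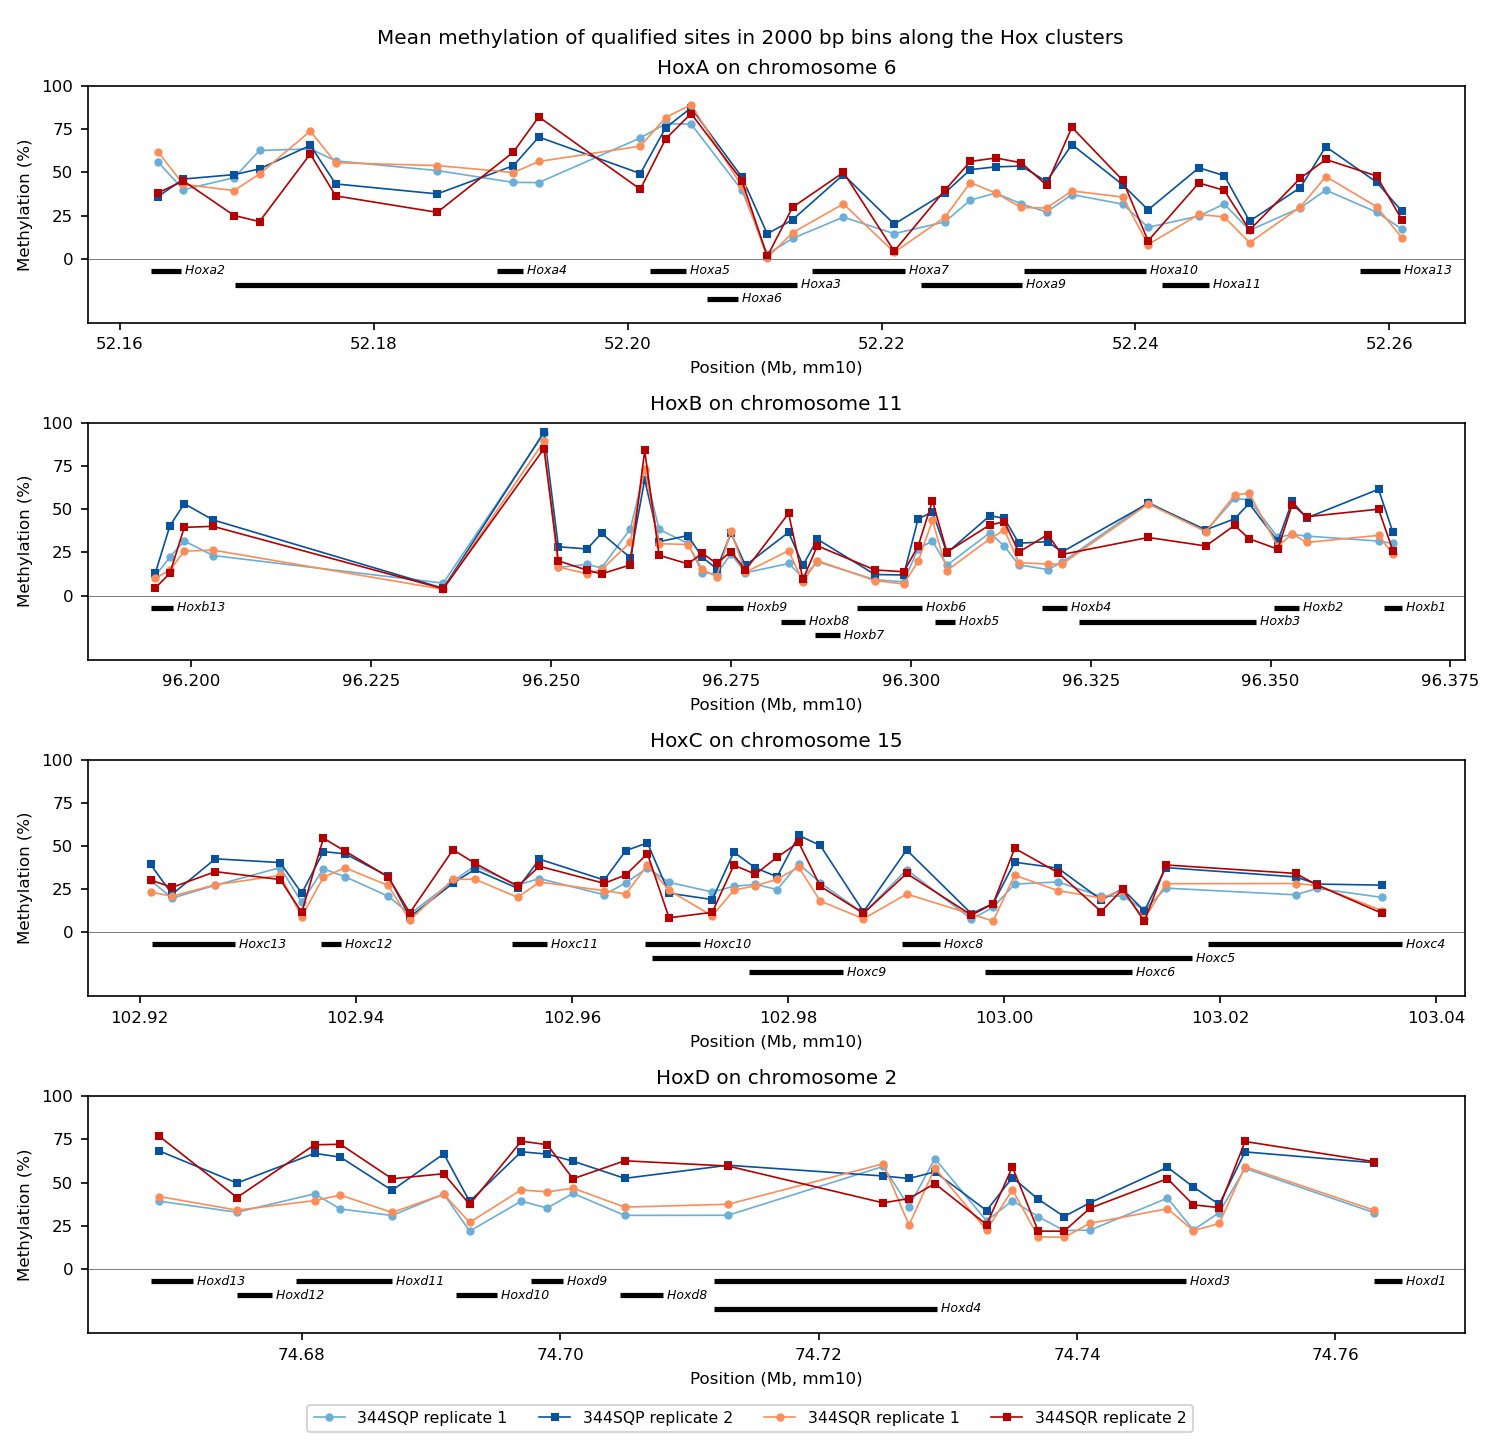
Mean methylation in percent (vertical axis) of measured sites in 2000 bp bins with at least 3 sites, along each Hox cluster (horizontal axis, Mb of mm10), with a line for each tumor (circles replicate 1, squares replicate 2, blue 344SQP, orange to red 344SQR) and black bars for the member genes. In HoxD the squares run above the circles over most of the cluster, whereas in the anterior part of HoxA, from Hoxa2 to Hoxa5, the lines cross.

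Averaged over all measured sites from the first to the last member base, HoxD (1044 sites) was at 35.2% and 57.1% in 344SQP and 37.4% and 58.4% in 344SQR, and HoxA (944 sites) was at 39.9% and 51.4% against 42.2% and 50.0%. HoxB (839 sites) was at 26.8% and 35.4% against 26.7% and 31.1%, and HoxC (653 sites) at 27.2% and 35.6% against 24.5% and 31.9%. HoxD and HoxA were thus the more methylated clusters in every tumor, and the lines overlapped in all 4 clusters.

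The clusters also hold noncoding genes, among them microRNAs that target Hox transcripts. Of 14 such genes, 11 had a promoter site. Of the 11, 7 were called lower, 3 higher and 1 was not called, against 29.7% lower and 8.79% higher of all promoters. In 3 of the lower ones the lines did not overlap, 1 of them on a single site (19.8% of all promoters were lower without overlap). Mir196a-1, beside Hoxb9, was at 37.9% and 31.1% in 344SQP and 23.6% and 21.2% in 344SQR over 9 sites, −12.1 points (FDR = 2.53e-13). Mir196a-2, between Hoxc10 and Hoxc9, was at 23.4% and 19.0% against 9.57% and 11.6% over 16 sites, −10.6 points (FDR = 3.86e-22). Both genes encode the same mature miR-196a-5p, and both were lower in each 344SQR tumor than in each 344SQP tumor. Leaving out each tumor in turn gave −15.5 to −8.71 points at Mir196a-1 and −12.8 to −8.40 points at Mir196a-2. Without a replicate block, neither was called by edgeR (FDR = 0.665 and 0.458) or limma (FDR = 0.519 and 0.381). With that block, edgeR called Mir196a-2 (FDR = 0.00376) but not Mir196a-1 (FDR = 0.147). Mir196b, inside the annotated span of Hoxa9 near its 5′ end, went the other way with overlap, at 27.1% and 45.2% against 28.6% and 55.5%, 5.96 points; without 344SQR replicate 2 the difference was −7.49 points and called, and without 344SQP replicate 1 it was −3.10 points and not called (FDR = 0.0699).

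The mature 5p sequences (RefSeq, GRCm38.p6) of the 3 miR-196 genes are given with the seed, bases 2 to 8, in capitals, because the members of this family share it.
Mir196a-1: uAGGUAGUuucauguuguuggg
Mir196a-2: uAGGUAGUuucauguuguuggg
Mir196b: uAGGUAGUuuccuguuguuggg
They are encoded at chr11:96265187-96265208 and chr15:102973365-102973386 on the plus strand and at chr6:52230129-52230150 on the minus strand. The sequences of miR-196a-5p and miR-196b-5p have the same seed and differ by A12C, counted from 1 at the 5′ end, with the miR-196a base first.

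The remaining noncoding promoters overlapped between the lines apart from Hoxb5os, which had 1 site (80.2% and 94.9% against 68.3% and 77.3%). Mir10b, in HoxD, was at 59.4% and 53.9% against 60.9% and 38.3% over 5 sites, −7.03 points, and was called; so were Hoxa11os (−3.93 points), Haglr (−4.07 points) and Hoxb3os (−1.49 points), all lower. Mir615 (3.49 points) and Hoxaas3 (2.73 points) were called higher, and Hoxd3os1 was not called, although each fit that left out a tumor called it, from −12.5 to 14.7 points. Mir615, Hoxa11os and Hoxd3os1 share 10, 6 and 20 of their sites with member promoters and are not independent of them. Of these, Hoxa11os turned to 10.0 points without 344SQP replicate 2 and 5.17 points without 344SQR replicate 1, Hoxb3os to 3.73 and 5.97 points without the same tumors, Mir615 to −3.56 points without 344SQP replicate 1 and −3.09 points without 344SQR replicate 2, and Hoxaas3 to −5.09 points without 344SQR replicate 1. Haglr was 0.532 points and not called without 344SQR replicate 1 (FDR = 0.380). Mir10b was not called without 344SQP replicate 1 or without 344SQR replicate 2, with differences from −18.3 to 4.26 points over the tumors left out. Mir10a, Hotair and Hoxaas2 had no measured site.

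Homeobox genes outside the clusters were less methylated than the Hox genes in every tumor, and the tumors of a line were apart there too. Of 66 such genes, 65 had a promoter site, with means of 23.9% and 36.9% in 344SQP and 25% and 35.9% in 344SQR; 25 were called lower, 21 higher and 19 were not called (29.7% and 8.79% of all promoters were lower and higher), and the tumor labelled replicate 2 was the higher in both lines at 59 of 65. Without overlap, 10 were called lower and 2 higher (19.8% and 2.75% of all promoters). Dlx3, a gene of skin and placenta, was at 16.7% and 18% against 3.10% and 1.1% (−15.2 points), and Six3, a forebrain and eye gene, at 16.8% and 38.4% against 11.9% and 13.2% (−15.0 points). Rax, another eye gene, was at 23.3% and 36.2% against 42.1% and 65.3% (24.0 points), and Barhl1, a neuronal gene, at 21.2% and 30.8% against 31.4% and 43.2% (11.3 points). Each of these 4 genes stayed called without any 1 tumor, although the difference was −4.24 points at Six3 without 344SQP replicate 2 and, without 344SQR replicate 2, 5.37 points at Barhl1 and 12.4 points at Rax. Without a replicate block, neither edgeR (FDR = 0.153 to 0.645) nor limma (FDR = 0.352 to 0.656) called any of the 4. With that block, edgeR called all 4 (FDR = 6.18e-22 to 0.0113).

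The TALE cofactors that bind DNA with Hox proteins were low in methylation: 9 of 9 had sites, with means of 5.17% and 6.48% in 344SQP and 3.51% and 4.50% in 344SQR. Of the 9, 6 were called lower and 0 higher, against 29.7% and 8.79% of all promoters. Meis2 fell from 6.62% and 7.59% to 1.40% and 1.65%, called by edgeR (FDR = 0.0437) and not by limma (FDR = 0.348), and Pbx4 was at 6.48% and 7.67% against 4.54% and 4.37%, not called in 1 of the 4 fits that left out a tumor (FDR = 0.218). Polycomb and Trithorax regulators, which keep Hox genes silent or active, were nearly free of promoter methylation, at 2.12% and 2.38% against 2.15% and 2.20% over 35 of 36 genes. Among the 35, 5 were called lower and 3 higher (29.7% and 8.79% of all promoters). Named by size, Rbbp7 on the X chromosome was at 18% and 17.1% against 16.9% and 10.4%, Phc1 at 1.82% and 1.91% against 1.31% and 1.21%, Eed at 0.526% and 0.979% against 1.19% and 1.83%, and Phc3 at 0.812% and 1.02% against 1.18% and 1.02%; each lost its call when some tumor was left out (highest FDR = 0.819, 0.274, 0.145 and 0.144). Genes of the retinoic acid pathway, which switches on anterior Hox genes, had 15 of 17 measured. Here 4 were called lower and 3 higher, beside 29.7% and 8.79% of all promoters. Cyp26c1 (91.5% and 90.8% against 89.6% and 83.7%; highest FDR without a tumor 0.570) and Cyp26b1 (2.75% and 3.13% against 1.86% and 1.35%), which break retinoic acid down, were lower, and Stra6, a retinol transporter, was higher (57.5% and 69.7% against 71.6% and 77.6%; 11.0 points, and 4.85 to 17.1 points without each tumor in turn).

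Values that depend on the cells in a tumor also differed between tumors. Promoters of leukocyte genes, usually unmethylated in leukocytes, averaged 36.8% and 48.6% in 344SQP and 33.4% and 40.4% in 344SQR over the 8 of 20 genes with sites. Of the 8, 5 were called lower and 1 higher, against 29.7% and 8.79% of all promoters. The tumor labelled replicate 2 was the higher in both lines at 6 of 8, as at the Hox promoters. The highest level among them was that of Cd3e, a T-cell receptor component with 2 sites, at 81.1% and 75.8% against 81.5% and 46.6%, and the gene with most sites, Ikzf1 (127 sites), was at 21.0% and 41.5% against 20.2% and 40.2%; Ptprc, Cd3g, Cd3d, Itgam and Csf1r were among those without a site. Endothelial and fibroblast genes averaged 38.6% and 49.9% against 32.8% and 48.7% over 8 of 15 genes. Among them 2 were called lower and 2 higher (29.7% and 8.79% of all promoters). Col1a1 was the highest, on 1 site, at 90% and 100% against 81.4% and 96.1%. Lung and epithelial genes averaged 7.36% and 6.69% against 6.43% and 6.83% over 6 of 12 genes, with 3 called lower and 1 higher (29.7% and 8.79% of all promoters). The lung regulator Nkx2-1 was the highest, at 9.87% and 14.5% against 12.7% and 18.7%. Foxa2, at 5.60% and 6.06% against 4.68% and 5.23%, was lower without overlap but not called in 1 of the fits that left out a tumor. Reads on the X chromosome, as a percent of autosomal CpG calls, were 1.62% and 1.30% in 344SQP and 1.54% and 1.19% in 344SQR, so the tumor with the higher Hox level in each line had the lower X share. Outside the pseudoautosomal region, Y chromosome calls were 0.0131% and 0.0150% of autosomal calls in 344SQP and 0.00735% and 0.00678% in 344SQR, in female hosts. The part of these values in the Hox results was not tested.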

How the data were processed

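Counts were taken from the processed files in which the authors list, for each CpG cytosine, its coverage and its percent of C and T calls. The deposited percent of C calls was used as the methylation value, and methylated read counts were recovered from percent and coverage. The authors had trimmed reads with Trim Galore 0.4.1 and cutadapt 1.9.1, and mapped them to mm10 with Bismark and Bowtie 1.1.2; reads were single and 50 bp long, from an Illumina HiSeq. None of these steps was redone.

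A site was used where every tumor had 20 reads or more. Promoters, exons outside promoters and 1000 bp windows outside both were built on GENCODE vM21 basic. Per site, a likelihood ratio test compared the lines without a term for spread between tumors; sites were joined as a signed Stouffer z, and p values were adjusted by Benjamini and Hochberg over all features of a kind. Means per tumor were compared by exact permutation. The packages edgeR 4.0.16 and limma 3.58.1 ran in R 4.3.3; all else ran in Python 3.11.15 (numpy 2.4.6, pandas 2.3.3, scipy 1.17.1, matplotlib 3.10.9).

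Genes were named by a rule: the 5 largest differences in each direction among called promoters with at least 5 sites and no overlap, the 3 highest and 3 lowest levels, members without a site, the 4 largest windows and 2 largest exons in each direction, and up to 2 genes in each direction per other list. Members and lists were chosen with earlier results of these data known. Alternatives tried were other read minimums, equal depth, other promoter and window definitions, a z without a sign, a replicate block, edgeR, limma and leaving out each tumor.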

Additional observations from a re-analysis of the deposited data

How the results depend on the processing

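The reruns of named exons, windows and genes of other lists were chosen after seeing the data. The cause was not tested for any of the changes below.

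Leaving out each tumor in turn gave 3 to 24 promoters called lower and 1 to 26 called higher, 11 to 25 and 0 to 12 exons, and 18 to 42 and 2 to 28 windows. Mean differences ran from −7.50 to 8.52 points for promoters, −9.62 to 0.916 for exons and −6.17 to 2.49 for windows.

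With edgeR, 0 promoters (unadjusted p under 0.05: 1 lower, 0 higher), 0 exons (2 and 0) and 1 window lower (6 and 0) were called. Over all features edgeR called 0.0745% of promoters, 0.0467% of exons and 2.17% of windows lower, and 0%, 0% and 0.0488% higher. Limma called 0 of each (at that p, 4 windows lower), against 0% of all promoters and exons. Of all windows limma called 0.0767% lower and 0.00465% higher. With a replicate block, edgeR called 1 promoter lower (Hoxc8, FDR = 0.000478) and 4 higher (Hoxd11, Hoxb5, Hoxa4 and Hoxd8), against 9.87% and 2.27% of all promoters, 5 and 0 exons (17.5% and 1.41%), and 6 and 0 windows (23.7% and 0.960%), and also called Mir196a-2 (FDR = 0.00376), Dlx3 (6.18e-22), Six3 (0.00967), Rax (1.30e-07) and Barhl1 (0.0113); the deviations of tumors with the same number correlated at 0.800 over Hox promoters and 0.663 over all promoters. A z without a sign called 10 exons and 23 windows higher (14.0% and 10.1% of all), and equal depth called 4 exons higher (8.74%).

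These differences changed sign and were called so in at least 1 fit without a tumor (lowest to highest): Hoxd11 −6.26 to 26.8, Hoxd9 −7.93 to 23.9, Hoxd8 −5.76 to 23.5, Hoxd3 −14.0 to 2.21, Hoxd12 −14.1 to 2.77, Hoxa11os −17.9 to 10.0, Hoxb3os −8.95 to 5.97, Hoxaas3 −5.09 to 10.5, Mir196b −7.49 to 19.4 and Mir615 −3.56 to 10.5. Hoxd3 was 2.94 with the TSS at the 5′ end only, Rbbp7 was 5.84 at a minimum of 50 reads, and Hoxb6, not called in the main test, was called at 10.8 with a minimum of 10 reads.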
